A study of Mus musculus with 4 samples.

Results

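The clade B serpins are a family of intracellular protease inhibitors, and 7 of their genes, Serpinb1a, Serpinb2, Serpinb6a, Serpinb6b, Serpinb8, Serpinb9 and Serpinb9b, were followed here. They were taken by symbol from the 34745 genes of the deposited table, in which 29 gene identifiers carry a Serpinb symbol. Serpinb9b had been selected on its fold change and p-value in this same comparison, and the choice of the others was made with its results known, so the differences of these 7 genes between the groups are a description and give no independent evidence. RNA was measured in bone marrow-derived monocytes/macrophages (BMMs) of wt, male C57BL/6 mice aged 8 weeks. After 12 h in medium lacking FBS the cells received complete medium with RANKL, the cytokine that drives osteoclast formation, at 100 ng/mL for 24 h. The RANKL+DI group (2 libraries) also received dimethyl itaconate (DI), a cell-permeable derivative of the macrophage metabolite itaconate, and the RANKL+Veh group (2 libraries) received DMSO as vehicle. The labels give the dose of DI as 20 mM and the study's methods give the same figure in μM. All libraries carried RANKL, so no library shows BMMs without it. The study's methods describe independent biological repeats for its in vitro work in general, but neither they nor the labels say whether the 2 libraries of a group came from separate mice or cultures, so errors and p-values measure only the spread between these libraries.

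Serpins trap a protease by offering it an exposed stretch, the reactive centre loop, as bait. Once the loop is cut, it folds into the body of the serpin and the protease stays bound in a distorted form. Residues around the cut decide which proteases are caught, while a short hinge before it must be flexible for the trap to close. Clade B members lack a classical signal peptide and mostly stay inside the cell, where leukocytes are thought to use them against proteases that escape from granules and lysosomes. Serpinb9 is the mouse granzyme B inhibitor, and Serpinb9b is one of its rodent paralogs. Serpinb6a is known to inhibit cathepsin G, Serpinb8 to inhibit furin, Serpinb2 (plasminogen activator inhibitor type 2) to inhibit urokinase, and Serpinb1a to inhibit neutrophil elastase, proteinase 3 and cathepsin G.

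The loop is shown for all 7 genes, because it is the stretch that meets the protease. The sequences are coding-strand bases of the principal GENCODE M21 transcripts (GRCm38), from the hinge glycine codon to the end of the conserved Asp/Asn-His-Pro-Phe stretch behind the loop. Capitals mark the codons between the 6-residue hinge and that stretch.
Serpinb9b: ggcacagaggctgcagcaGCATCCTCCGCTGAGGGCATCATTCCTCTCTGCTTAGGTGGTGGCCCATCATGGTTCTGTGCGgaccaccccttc
Serpinb9: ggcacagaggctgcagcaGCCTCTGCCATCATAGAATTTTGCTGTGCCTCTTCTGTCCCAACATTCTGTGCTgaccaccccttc
Serpinb6b: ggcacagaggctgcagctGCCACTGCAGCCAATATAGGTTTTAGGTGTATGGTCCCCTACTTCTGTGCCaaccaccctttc
Serpinb6a: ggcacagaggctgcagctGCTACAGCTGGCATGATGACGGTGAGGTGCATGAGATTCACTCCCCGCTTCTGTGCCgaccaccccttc
Serpinb8: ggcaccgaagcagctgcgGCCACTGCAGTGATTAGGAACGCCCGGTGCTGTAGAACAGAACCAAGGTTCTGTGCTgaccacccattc
Serpinb1a: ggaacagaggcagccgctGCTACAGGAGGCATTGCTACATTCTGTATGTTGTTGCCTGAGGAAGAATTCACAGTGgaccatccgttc
Serpinb2: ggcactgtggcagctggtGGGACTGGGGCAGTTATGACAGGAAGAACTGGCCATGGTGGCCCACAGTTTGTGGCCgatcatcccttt
In Serpinb9b this segment lies at chr13:33039802-33039894 on the plus strand, within 1 coding exon, and in Serpinb9 at chr13:33015699-33015782, also on the plus strand and within 1 coding exon. The capitals spell 21 codons in Serpinb9b and 18 in Serpinb9. Of the 18 residue pairs aligned there, 8 were identical, against 279 of 356 pairs (78.4%) over the rest of these proteins. Serpinb6a and Serpinb6b shared 10 of 17 aligned loop residues and 82.2% of the others. Loop residues of Serpinb6a and Serpinb8 were identical at 11 of 19 positions, and their other residues at 62.3%. The proteins of Serpinb9 and Serpinb9b, of 374 and 377 residues, were 76.7% identical over their whole length and their coding sequences 86.0%.

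Near-identical stretches decide how far reads can be assigned to a single copy. The longest identical run between the coding sequences of Serpinb9 and Serpinb9b was 62 bases, and between those of Serpinb6a and Serpinb6b 57 bases. No 100-base word of the principal Serpinb9, Serpinb6b, Serpinb8, Serpinb2 or Serpinb1a transcript occurred in a compared transcript of another gene. In Serpinb9b, 2.03% of the 100-base words were shared, all with Gm36099, an annotated gene on the opposite strand. In Serpinb6a, 12.2% were shared, all with 1110046J04Rik, likewise on the opposite strand. With 50-base words the shared part was 5.62% for Serpinb9b, 0.38% for Serpinb9, 20.7% for Serpinb6a and 3.12% for Serpinb6b. Exons of Gm36099 and 1110046J04Rik overlap those of Serpinb9b and Serpinb6a at the same positions, over 278 and 584 bases, so they are not separate copies. Gm36099 is not among the deposited genes, so no counted read was assigned to it. The read length and the treatment of reads that match several genes are not given in the sources used here. Reads from stretches shared with another deposited gene could therefore have been assigned to either gene. Among the transcripts compared, the shared words of Serpinb9 were all shared with Serpinb9b, while those of Serpinb9b also lay in Gm36099 and Gm7242. Only a limited number of the best-matching transcripts was compared for each gene, so the shared parts are minimum values.

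Serpinb9b (ENSMUSG00000021403, chr13:33027416-33041884) had 2257 and 2283 counts in the RANKL+DI libraries and 524 and 448 in the RANKL+Veh libraries. As CPM, which here are counts relative to the library total scaled with TMM factors, its level was 126.6 ± 6.88 (SD, n = 2) with DI and 27.5 ± 0.872 (SD, n = 2) with vehicle. Both DI libraries lay far above both vehicle libraries. The fitted fold was 4.60, a log2 fold change of 2.20 with a standard error of 0.07, which ranked 8 from the top among the 12590 genes with enough counts to be fitted.

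Serpinb9 (ENSMUSG00000045827, chr13:33003250-33017957), the granzyme B inhibitor, starts 24.2 kb before Serpinb9b on the same strand. It had 2133 and 2324 counts in the DI libraries, against 958 and 824 under vehicle. Its CPM was 124 ± 0.23 (SD, n = 2) against 50.5 ± 1.38 (SD, n = 2), a fitted fold of 2.46 (log2 fold change 1.30, SE 0.05). Again the groups did not overlap. The ratio of Serpinb9b to Serpinb9 counts was 1.06 and 0.982 in the DI libraries and 0.547 and 0.544 in the vehicle libraries, so the paralogs were counted about equally with DI while Serpinb9 had more counts with vehicle.

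Serpinb8 (ENSMUSG00000026315, chr1:107590006-107610484), the furin inhibitor, had 968 and 1074 counts in the DI libraries, against 683 and 608 under vehicle. In CPM this was 56.8 ± 0.624 (SD, n = 2) against 36.6 ± 0.116 (SD, n = 2), a log2 fold change of 0.64 with SE 0.06. Its libraries separated by group with little spread inside either.

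Serpinb6a (ENSMUSG00000060147, chr13:33917918-34002794), the cathepsin G inhibitor, was the most counted gene of the family in every library. It was counted 5465 and 5271 times in the DI libraries and 4159 and 4707 times under vehicle. The 4 CPM values, 318.4 and 281.1 with DI and 223.3 and 282.6 with vehicle, overlapped between the groups. The log2 fold change was 0.25 (SE 0.12), and it moved to 0.43, past the threshold, without vehicle replicate 2 and to 0.08 without vehicle replicate 1. Its exons also overlap exons of Nqo2, Ripk1 and 1110046J04Rik on the opposite strand, over 14.1%, 4.46% and 10.8% of its merged exon length. No source used here says that counting used strand. The log2 fold changes of these 3 neighbours were 0.03, -0.01 and 0.69, and none passed the test (edgeR, adjusted p 0.8, 0.952 and 0.144).

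Serpinb6b (ENSMUSG00000042842, chr13:32965209-32979067), the close copy of Serpinb6a, was the 1 chosen gene with tested counts that was lower with DI in both libraries. It had 442 and 456 counts in the DI libraries, against 502 and 497 under vehicle. The CPM values were 25 ± 1.01 (SD, n = 2) and 28.4 ± 2.04 (SD, n = 2), which did not overlap but lay close together (log2 fold change -0.18, SE 0.09).

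Serpinb2 (ENSMUSG00000062345, chr1:107511423-107535478), the urokinase inhibitor, was barely present, with 13 and 14 counts in the DI libraries, against 16 and 10 under vehicle. Its log2 fold change of 0.03 had a standard error of 0.38, and its sign turned without vehicle replicate 2 (-0.19) and when only library size was used for scaling (-0.07). It shares 12.4% of its exon length with Serpinb10 on the same strand, which had at most 4 counts. Serpinb1a (ENSMUSG00000044734, chr13:32842092-32851185), the inhibitor of neutrophil proteases, had 7 and 10 counts in the DI libraries, against 7 and 15 under vehicle and did not pass the filter on low counts. Fitted without the filter, its log2 fold change was -0.41 with SE 0.61. At this depth no difference was detectable for either gene.

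**Figure D1:**
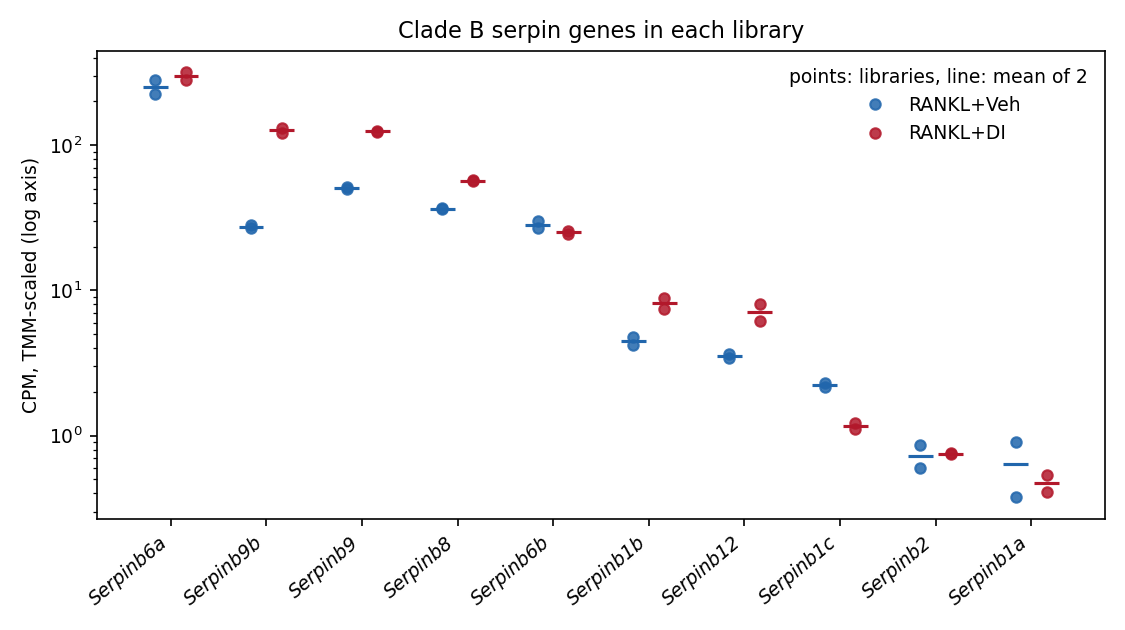
Level of 10 clade B serpin genes in each library, in TMM-scaled CPM on a log axis; points are libraries and lines are means of 2. Serpinb9b, Serpinb9, Serpinb8, Serpinb12 and Serpinb1b are higher in both RANKL+DI libraries than in both RANKL+Veh libraries. Serpinb6b and Serpinb1c are lower in both, while Serpinb6a, Serpinb2 and Serpinb1a overlap. Of all tested genes, 58.6% do not overlap between the groups.

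Of the 7 genes, 6 passed the filter. In the fit over all genes, 3 of them (Serpinb9b, Serpinb9 and Serpinb8) fell on the higher side of the threshold (edgeR, adjusted p under 0.05) and none on the lower side. For Serpinb9b this restates how it was chosen, and the others were chosen with these results known. Among all 12590 tested genes, 14.8% were called, 7.14% higher and 7.7% lower. Because the choice of these genes drew on this same comparison, nothing is read from their count against that share, nor from the overlap and median given next. The groups did not overlap in CPM for 4 of the 6, against 58.6% of all tested genes. Their median log2 fold change was 0.44, beside 0.00 over all tested genes. With only library size for scaling, the calls over all genes went from 48.1% higher to 22.1% higher and the median of all genes fell by 0.10 on the log2 scale. On that scale Serpinb9b, Serpinb9 and Serpinb8 had log2 fold changes of 2.10, 1.19 and 0.53.

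The family holds 22 further gene identifiers, which were not chosen for this comparison. Serpinb12, known to inhibit trypsin-like proteases, had 106 and 150 counts in the DI libraries, against 64 and 61 under vehicle (log2 fold change 1.001, SE 0.19, edgeR adjusted p = 0.0201). Serpinb1b, a copy of Serpinb1a and 86.8% identical to it in protein, had 152 and 140 counts in the DI libraries, against 78 and 80 under vehicle (0.86, SE 0.16, edgeR adjusted p = 0.0209). Both rose, but neither call held when certain single libraries were left out, while the folds stayed of similar size. In 50-base words, Serpinb1b shared 3.52% and Serpinb1c 6.63% with their copies. The call of Serpinb1b was lost without DI replicate 1, vehicle replicate 1 or vehicle replicate 2, with log2 fold changes of 0.74, 0.76 and 0.96 and edgeR adjusted p values of 0.0631, 0.0978 and 0.0602, and with the replicate number as a block (0.0501). That of Serpinb12 was lost without DI replicate 2, vehicle replicate 1 or vehicle replicate 2, with log2 fold changes of 0.80, 0.95 and 1.05 and edgeR adjusted p values of 0.0619, 0.0908 and 0.074. Serpinb1c, another copy of this group, pointed the other way with 19 and 23 counts in the DI libraries, against 43 and 36 under vehicle. Its log2 fold change of -0.93 (SE 0.26) missed the threshold (edgeR adjusted p = 0.0654), and it passed when at least 10 counts were required in every library (0.0425) or only library size was used (0.0409). In the M21 protein of Serpinb1c the hinge pattern used for the other loops was not found.

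**Figure D2:**
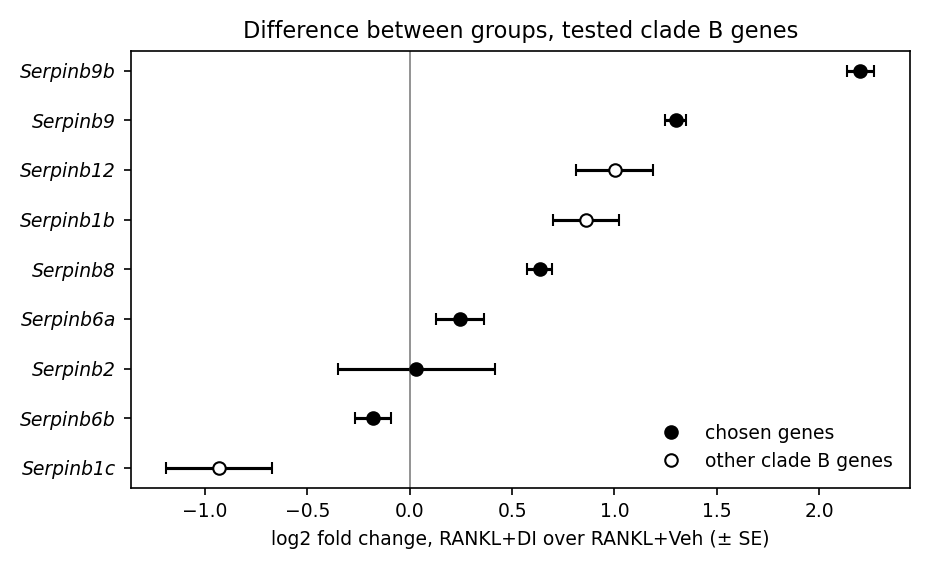
Log2 fold change of RANKL+DI over RANKL+Veh for the 9 tested clade B genes, with bars of 1 standard error from the edgeR fit; filled points are chosen genes and open points the other family members. Values run from -0.93 for Serpinb1c to 2.20 for Serpinb9b.

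The other 19 identifiers had too few counts to be tested. Serpinb5 had 8 and 1 counts in the DI libraries and 0 and 1 under vehicle, and Serpinb10 1 and 4 against 0 and 3. Serpinb7 and Serpinb9e had 1 count each in a single library. The remaining 15, which include Serpinb3a to Serpinb3d, Serpinb6c to Serpinb6e, Serpinb9c, Serpinb9d, Serpinb9f, Serpinb9g, Serpinb11 and Serpinb13, had 0 counts in every library, where 3 counts correspond to 0.16 to 0.18 CPM. Of 13 identifiers on chromosome 1, 6 had any count, and of 16 on chromosome 13, 8 did.

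Summed over the family, CPM was 674.2 and 626.7 with DI and 377.7 and 437.7 with vehicle, a ratio of means of 1.60. Serpinb9b made up 40.8% of the difference between the group means, Serpinb9 30.3%, Serpinb6a 19.3% and Serpinb8 8.34%. Leaving out vehicle replicate 1 lowered the part of Serpinb6a to 8.06%, and leaving out vehicle replicate 2 raised it to 28.0%. The share of Serpinb9b in the sum was 19.5% and 19.4% with DI and 7.45% and 6.15% with vehicle. The share of Serpinb6a was 47.2% and 44.9% with DI and 59.1% and 64.6% with vehicle. Without Serpinb9 and Serpinb9b the sums were 418.4 and 381 with DI and 298.1 and 361.3 with vehicle, which still did not overlap but lay closer together. In bulk RNA of this kind, a change in the number of cells of a type and a change in RNA per cell cannot be told apart.

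**Figure D3:**
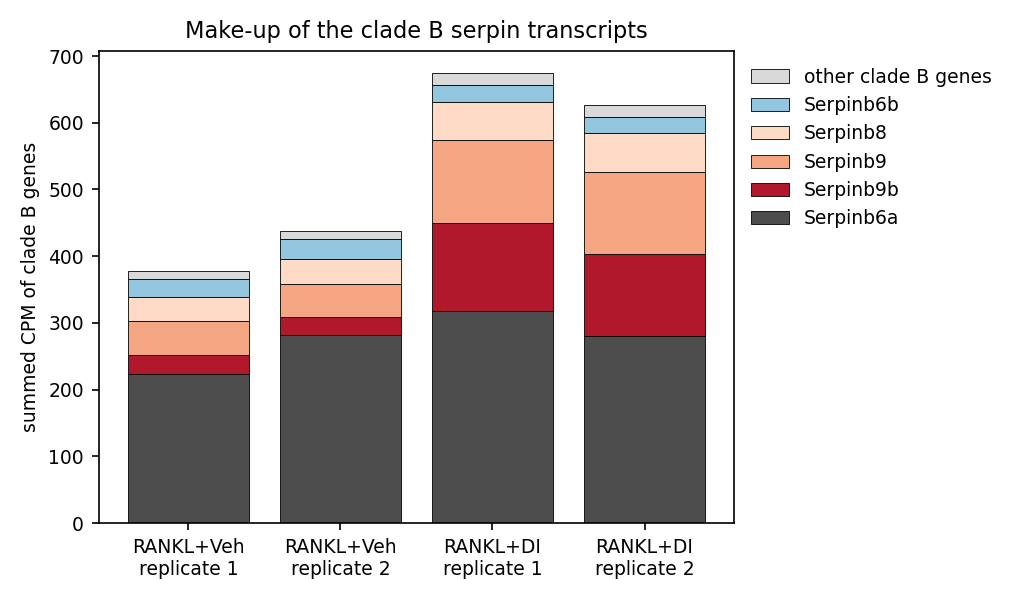
Summed CPM of all clade B serpin genes in each library, stacked by gene. The RANKL+DI bars reach 674.2 and 626.7 and the RANKL+Veh bars 377.7 and 437.7, and the Serpinb9b and Serpinb9 layers are the ones that widen most.

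Levels of different genes were compared per length. On the deposited FPKM values, which scale counts by gene length and library total, the order with vehicle was Serpinb6a at 30.0 ± 4.96, Serpinb9b at 8.76 ± 0.281, Serpinb9 at 8.52 ± 0.237, Serpinb6b at 8.19 ± 0.586 and Serpinb8 at 4.9 ± 0.0175 FPKM (SD, n = 2 each). Serpinb9b, Serpinb9 and Serpinb6b were within their spread of each other on this scale, while per kilobase of merged exons Serpinb9 was at 14.4, Serpinb6b at 12.6 and Serpinb9b at 8.21 CPM. With DI, Serpinb9b stood at 37.5 ± 1.92 FPKM and Serpinb6a at 33.1 ± 2.8, followed by Serpinb9 at 19.5 ± 0.027, Serpinb8 at 7.09 ± 0.101 and Serpinb6b at 6.72 ± 0.25 (SD, n = 2 each). The lowest Serpinb9b value with DI (36.2) was above the highest of Serpinb6a (35.1), so on this scale Serpinb9b led the family.

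That order rested on the gene length used. The length implied by the deposited counts and FPKM was 8733 bases for Serpinb6a, against 5409 bases of merged M21 exons and 1654 bases of its principal transcript. For Serpinb9b the corresponding lengths were 3253, 3351 and 3253 bases. Over 11451 genes with more than 20 counts, the implied length was within 1% of the sum of all distinct annotated exons, with overlapping exons each added in full, for 68.7% of genes, against 9.78% for merged exons. This sum grows with the number of overlapping exon forms a gene is annotated with. Per kilobase of merged exons, Serpinb6a with DI was at 55.4 CPM and Serpinb9b at 37.8, a ratio of Serpinb9b to Serpinb6a of 0.682 where FPKM gave 1.13. Per kilobase of the principal transcript the levels were 181.2 and 38.9 CPM, a ratio of 0.215. On both of these scales Serpinb6a was the highest, Serpinb9b second and Serpinb9, at 35.5 and 35.7 CPM per kilobase, close behind it. Differences between the groups for a single gene do not involve its length.

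**Figure D4:**
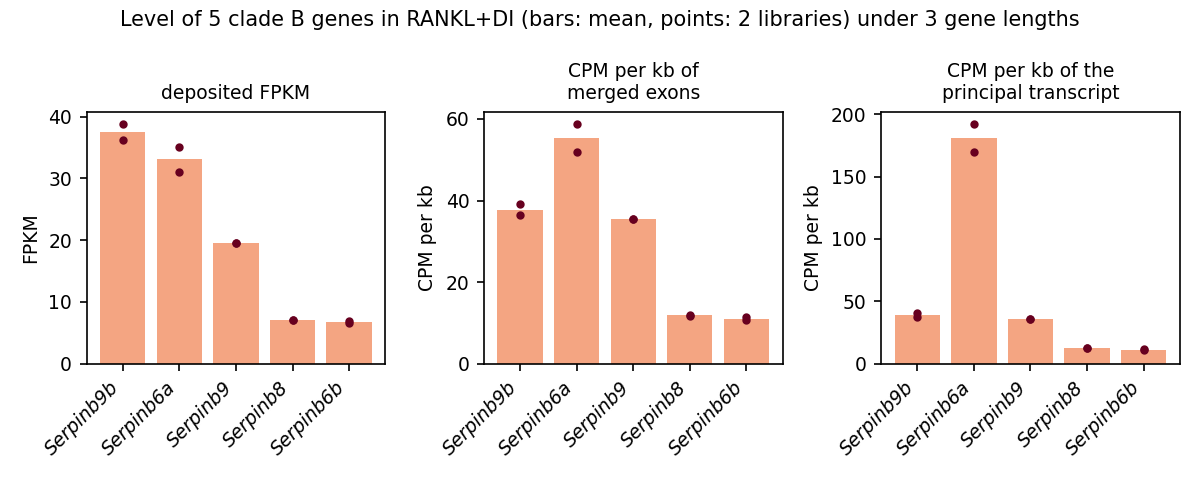
Level of 5 clade B genes in the RANKL+DI group as deposited FPKM, as CPM per kilobase of merged exons and as CPM per kilobase of the principal transcript; bars are means and points the 2 libraries. Serpinb9b is highest in the first panel and Serpinb6a in the other panels.

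Serpinb9b lies in a serpin cluster on chromosome 13. Within 500 kb of its start, 20 genes of the table begin, 12 of them clade B serpins, and 6 had enough counts to be tested. Serpinb9, 24.2 kb before it, and Serpinb1b, 56.7 kb after it, were both higher with DI. Serpinb6b, 62.2 kb before it, had a log2 fold change of -0.18, and Serpinb1c, 145.6 kb before it, one of -0.93. Wrnip1, the 1 tested gene there that is no serpin, had a log2 fold change of 0.12 (SE 0.11) and did not pass the test (edgeR adjusted p = 0.501). Beyond Serpinb1b, no gene of the window had more than 1 count in a library, and the copies Serpinb9c to Serpinb9g lie on that side.

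**Figure D5:**
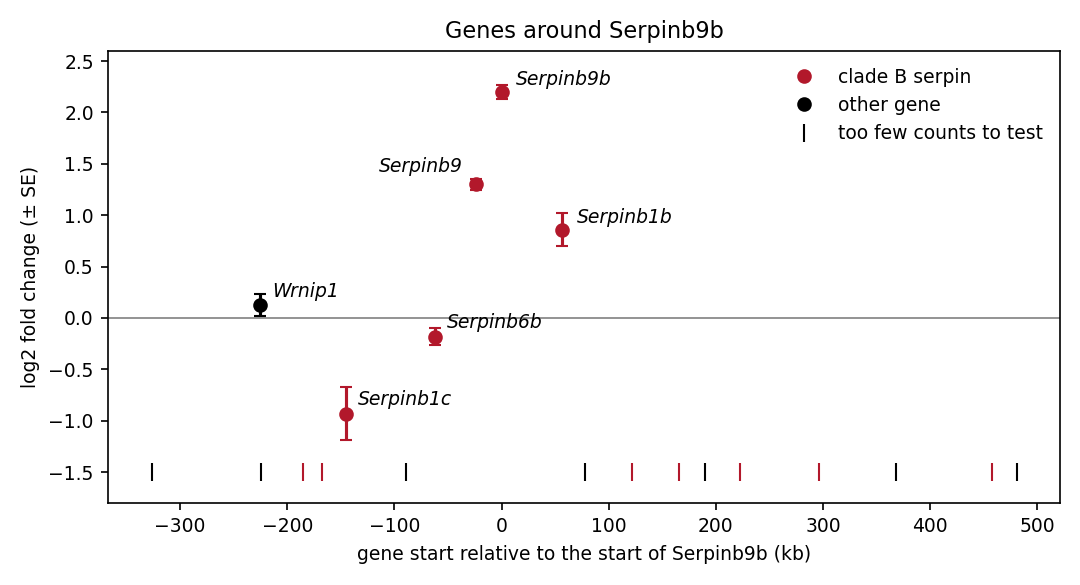
Log2 fold change with 1 standard error against the distance of each gene's start from the start of Serpinb9b in kb; ticks mark genes with too few counts to be tested. Serpinb9b, Serpinb9 and Serpinb1b are neighbours at 2.20, 1.30 and 0.86, while Wrnip1 is at 0.12.

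The bases before the start are shown for the 3 chosen genes with the largest fitted folds. Each run holds the 250 bases before the RefSeq start (GRCm38.p6), in gene orientation, at chr13:33027164-33027413 for Serpinb9b, chr13:33004291-33004540 for Serpinb9 and chr1:107589756-107590005 for Serpinb8, all on the plus strand. In the M21 annotation Serpinb9 starts earlier, at 33003250, so its window lies inside the annotated gene. The bases before that annotated start were not searched. Capitals mark matches on either strand to any of 4 patterns.
Serpinb9b: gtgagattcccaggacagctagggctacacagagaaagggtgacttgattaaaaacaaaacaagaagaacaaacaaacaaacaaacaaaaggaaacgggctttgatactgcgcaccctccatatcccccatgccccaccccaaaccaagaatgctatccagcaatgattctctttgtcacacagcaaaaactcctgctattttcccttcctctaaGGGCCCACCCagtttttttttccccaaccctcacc
Serpinb9: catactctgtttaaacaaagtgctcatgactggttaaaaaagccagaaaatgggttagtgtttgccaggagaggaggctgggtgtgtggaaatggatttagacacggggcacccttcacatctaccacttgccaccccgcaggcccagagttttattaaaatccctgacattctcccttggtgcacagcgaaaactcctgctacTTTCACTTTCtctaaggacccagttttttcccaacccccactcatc
Serpinb8: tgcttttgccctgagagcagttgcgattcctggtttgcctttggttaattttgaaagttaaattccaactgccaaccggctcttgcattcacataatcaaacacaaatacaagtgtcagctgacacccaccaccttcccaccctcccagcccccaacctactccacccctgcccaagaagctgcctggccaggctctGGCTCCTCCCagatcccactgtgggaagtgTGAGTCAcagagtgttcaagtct
The patterns searched, over these bases and the next 50, were a core of the antioxidant response element (TGACNNNGC), the AP-1 site (TGANTCA), a core of the interferon-stimulated response element (GAAA, any 2 bases, GAAA) and an NF-kB site (GGG, any 5 bases, CC). Among 32851 RefSeq windows of 300 bases, 12.4%, 7.81%, 3.44% and 50.8% held them in that order. Serpinb9b held 1 match, to the NF-kB pattern at -35 to -26. Serpinb9 held 1, to the interferon pattern at -46 to -37. Serpinb8 held an NF-kB match at -53 to -44 and AP-1 matches at -23 to -17 and inside the transcript at 14 to 20. None of the 3 windows matched the antioxidant pattern, no match overlapped another, and no pattern was shared by all 3. The first 2 patterns can overlap in principle, since both may start with the same letters.

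The genes whose values ran most like those of Serpinb9b over the 4 libraries were Il1f9 (an interleukin-36 cytokine), Tarm1 (a myeloid activating receptor), Gsta3 (a glutathione transferase), Unc5b (a netrin receptor) and Arl5b (a small GTPase). Likeness was the Euclidean distance between log2 CPM values centred on each gene's mean, which was 0.13, 0.227, 0.364, 0.524 and 0.563. Il1f9 had 226 and 260 counts in the DI libraries, against 49 and 42 under vehicle. Gsta3, with 1852 and 1913 counts against 541 and 492, came nearest to Serpinb9b in abundance. The distance is dominated by the difference between the groups, so it picks genes with a similar fold.

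Proteases that clade B serpins or related inhibitors are known to meet, together with Plaur, were taken as a list of 20 genes. Plaur encodes the urokinase receptor, which is no protease, and is among the genes counted as higher. Of the 20, 13 were tested, 7 rose and 2 fell, against 7.14% higher and 7.7% lower among all tested genes. Their median log2 fold change was 0.22, beside 0.00 over all tested genes. This list and the other gene lists below were chosen with earlier results of these data known, so their shares and medians are a description. The cathepsins with the most counts all rose, Ctsb by 0.34 (SE 0.03), Ctss by 0.28 (SE 0.03) and Ctsl by 0.22 (SE 0.04) on the log2 scale, with edgeR adjusted p values of 0.00298, 0.00317 and 0.0185. The largest differences were in Ctsk, the collagen-degrading cathepsin of osteoclasts, which fell by 0.58 (SE 0.08), and in Ctsh and Plaur (the urokinase receptor), which rose by 0.48 (SE 0.07) and 0.48 (SE 0.06), with edgeR adjusted p values of 0.00659, 0.00851 and 0.00517. The partners of individual inhibitors were named after their values were seen. Furin, the partner of Serpinb8, rose by 0.22 (SE 0.05, edgeR adjusted p = 0.0425), and Plau, the partner of Serpinb2, rose by 0.22 (SE 0.04, edgeR adjusted p = 0.0127). With only library size for scaling, the median log2 fold change over all tested genes was -0.10 rather than 0.00. Rises as small as 0.22 in this list and the next therefore depend in part on the scaling. Their calls were not followed over the alternatives. Granzymes Gzma, Gzmb and Gzmc had 0 counts in every library, so granzyme B, named above for Serpinb9, was not detected in these cells. Elane, Prtn3 and Ctsg, partners of Serpinb1a and Serpinb6a, had at most 9 counts in any library.

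Protease inhibitors outside the serpins formed a list of 12, of which 7 were tested and 3 rose, against 7.14% of all tested genes. Slpi, a secreted inhibitor of neutrophil elastase, rose by 1.03 (SE 0.16, edgeR adjusted p = 0.0111), with 108 and 128 counts in the DI libraries, against 57 and 56 under vehicle. Wfdc17 rose by 0.40 (SE 0.08, edgeR adjusted p = 0.022) and Cstb, an intracellular cathepsin inhibitor, by 0.22 (SE 0.04, edgeR adjusted p = 0.0231). Timp1, an inhibitor of metalloproteases, had a log2 fold change of 0.78 (SE 0.26) that did not pass (edgeR adjusted p = 0.101), and Cst3 and Timp2 had values of 0.11 and -0.09 that did not pass either. The tested serpins of other clades that did not pass the test were Serpini1, Serpine2, Serpinf1 and Serpinh1, with log2 fold changes of 0.88, 0.33, 0.28 and 0.09 (edgeR adjusted p 0.15, 0.577, 0.417 and 0.687).

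The libraries held 16085692 to 19403480 counts. All 11 identifiers of the macrophage marker list were above 1 CPM in every library. Their sum was 29543 to 30335 CPM with DI and 23444 to 24249 with vehicle. Most of it was Lyz2, with means of 23279 CPM with DI and 17960 with vehicle. Of the 11, 5 rose and 3 fell (edgeR, adjusted p under 0.05), against 7.14% and 7.7% of all tested genes. Cd14, Fcgr1 and Ptprc were those that fell. Of 10 osteoclast markers, Calcr was at 0, and of 8 tested 5 fell and 2 rose, against 14.8% called either way among all tested genes. Markers of T and NK cells, mast cells and basophils, and epithelium summed to at most 0.72 CPM in any library, neutrophil markers to 9.23 to 11.4 CPM, and stromal markers to 41.6 to 51.7 CPM. The B cell list summed to 21.3 to 23.5 CPM with DI and 10.7 to 11.8 with vehicle, nearly all of it Ighm (log2 fold change 1.03, edgeR adjusted p = 0.00298), with 4 of 8 markers at 0 in every library. Its part in the serpin values was not tested.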

How the data were processed

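mRNA libraries from 4 BMM samples were sequenced as read pairs. Unnormalized counts and the FPKM values that follow from them were deposited for each gene and library. A further deposited table, which repeats them beside pathway annotation, was not used. The aligner, the counting program and the annotation release are not given in the sources used here, and the labels name the builds GRCm38 and mm10. Of 34745 gene identifiers, 34267 were in GENCODE M21 (GRCm38) and 80.8% had the same position there. The 7 genes, the gene lists and the rule for named genes were chosen with earlier results of these data known. Named were the 7 genes, every other Serpinb gene, tested serpins of other clades (a withheld item is not reported here), genes that start within 500 kb of Serpinb9b, genes overlapping a chosen gene, the 5 genes most like Serpinb9b (average log2 CPM over 1), and from the protease and inhibitor lists those with the most counts and the largest differences.

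Counts were analysed with edgeR 4.0.16 in R 4.3.3 with TMM scaling, filterByExpr at its defaults (12590 genes kept), a quasi-likelihood fit with group as its term, and Benjamini-Hochberg adjustment over all tested genes. Standard errors were derived from F statistics. The fit was tested on simulated data with the same library sizes, where 82.8% to 90.9% of changes of 1 on the log2 scale were recovered over 12419 to 12479 genes. Of the calls there, 3.17% to 6.28% were false. Variation between simulated replicates depended on expression level alone, and far fewer genes changed than were called here. These shares therefore need not hold for the real libraries. An exact permutation test of 2 against 2 libraries cannot go below p = 0.333, so none was used. DESeq2 1.42.0, limma 3.58.1, other scaling and filters, a replicate block and leaving out each library were alternatives. Replicates differed by more than counting noise (chi-square per degree of freedom 7.97 and 8.14). Coding sequences were aligned with Biopython 1.88, and transcripts searched for shared words of 50 and 100 bases.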

Additional observations from a re-analysis of the deposited data

How the results depend on the processing

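Over 12 alternatives, the log2 fold change stayed between 2.10 and 2.26 for Serpinb9b, 1.19 and 1.33 for Serpinb9, and 0.53 and 0.65 for Serpinb8. In the main fit, 1868 of 12590 tested genes (14.8%) and 5 of 9 tested clade B genes were called. Of the 5, 3 are chosen genes whose calls give no independent evidence, so nothing is read from this count. Leaving out 1 library gave 1087 to 1394 called genes against 1868, and 3 to 4 called clade B genes against 5. The values were 1087 without vehicle replicate 2, and 1120 genes and 3 clade B genes without vehicle replicate 1. In these fits the lone library of a group was assumed to vary like the other group. Libraries with the same replicate number did not deviate together (correlation of deviations -0.08), and the labels do not say whether they were prepared as pairs. With the replicate block, 1389 genes and 4 clade B genes were called, Serpinb1b being lost (edgeR adjusted p = 0.0501). DESeq2 called 1598 genes and limma-voom 1893. Of the fitted clade B genes, the sign of the fold turned in these alternatives for the uncalled Serpinb2 and for no other. Serpinb1a was fitted in only some of them and not without vehicle replicate 2. There its CPM difference, DI minus vehicle, was 0.09, against -0.17 over all libraries. The ratio of Serpinb9b to Serpinb6a levels with DI, 1.13 on FPKM, turned below 1 to 0.682 per merged exon length and 0.215 per principal transcript length, both chosen after seeing the data. Depth limits Serpinb2, Serpinb1a and the genes at 0.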
